A study of Mus musculus with 190 samples.

Results

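The mitochondrial ribosomal protein genes were taken as the protein-coding genes whose symbol begins with Mrpl or Mrps followed by a number, which gave 78 of the 55414 genes in the deposited count table. By name 49 belong to the large and 29 to the small subunit of the mitochondrial ribosome. Their transcripts were followed in 190 whole-blood libraries from male wild-type NC/Nga mice, an inbred strain that develops skin inflammation resembling atopic dermatitis when it is kept in conventional housing. Blood came from the tail vein, and stranded total-RNA libraries were made after depletion of ribosomal and globin RNA. All 78 members passed the filter on low counts.

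The conventional mice were labelled as 9 groups, called cohorts here, each with 10 libraries per sampling. Their second sampling was on day 44 in the odd-numbered cohorts and on day 40 in the even-numbered ones. The first had been on days 2, 5, 9, 12, 16, 19, 23, 26 and 30 for cohorts 1 to 9 in that order. A further control cohort was housed specific-pathogen-free (SPF) and gave 5 libraries each on days 16 and 44. The labels do not tie the libraries of the samplings to single mice. All groups share strain, sex and genotype, and the labels name no compound given to any of them. Each library carries a dermatitis score: 83 of 90 conventional libraries of the second sampling and 32 of 90 of the first scored above 0, none of them before day 12, while the SPF libraries all scored 0. Every first-sampling day was drawn from a single cohort, so effects of day and of cohort cannot be told apart there, and housing likewise rests on 1 SPF cohort.

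Mitochondrial ribosomes sit in the mitochondrial matrix and translate the mRNAs of the mitochondrial genome, which encode core subunits of the respiratory chain and of ATP synthase. Their rRNAs are made in the organelle, but all of their proteins are encoded in the nucleus, translated in the cytosol and imported. In blood the need differs by cell type: lymphocytes carry active mitochondria and build more of them when they are activated, mature neutrophils rely largely on glycolysis, and red cells lose their mitochondria as they finish maturing, so that transcripts for them persist mainly in reticulocytes.

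Promoter sequence is shown for 4 members whose values recur below: 2 that rose in the second sampling, Mrps21 and Mrpl32, and 2 that fell, Mrpl12 and Mrps26. Each is the 250 bases before the RefSeq gene start on build GRCm38.p6, printed 5′ to 3′ on the strand of the gene, with motif matches in capitals. The motifs were the core of the ETS family (CCGGAAG), which GABP reads, that of NRF1 (GCGCA, then any base, then GCGC), that of YY1 (AAGATGGC) and that of the GATA family (AGATAA), each searched on both strands. GABP, NRF1 and YY1 are known regulators of nuclear genes for mitochondrial proteins, and GATA factors act in the red cell lineage. The Mrps21 window is chr3:95871515-95871764 on the minus strand and holds an NRF1 match. For Mrpl32 the window is chr13:14613038-14613287 on the minus strand, with a YY1 match and an NRF1 match. That of Mrpl12 is chr11:120484387-120484636 on the plus strand, with an NRF1 match. The Mrps26 window is chr2:130563507-130563756 on the plus strand, with an ETS match.
Mrps21: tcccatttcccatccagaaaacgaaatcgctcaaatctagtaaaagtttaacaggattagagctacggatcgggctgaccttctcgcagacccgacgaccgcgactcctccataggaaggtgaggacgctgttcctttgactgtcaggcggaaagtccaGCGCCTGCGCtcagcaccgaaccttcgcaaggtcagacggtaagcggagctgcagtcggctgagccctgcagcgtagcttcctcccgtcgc
Mrpl32: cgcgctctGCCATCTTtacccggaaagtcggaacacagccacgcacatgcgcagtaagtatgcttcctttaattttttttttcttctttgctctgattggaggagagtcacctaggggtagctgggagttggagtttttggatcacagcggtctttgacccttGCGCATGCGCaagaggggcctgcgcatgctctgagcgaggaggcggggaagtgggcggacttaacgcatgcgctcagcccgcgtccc
Mrpl12: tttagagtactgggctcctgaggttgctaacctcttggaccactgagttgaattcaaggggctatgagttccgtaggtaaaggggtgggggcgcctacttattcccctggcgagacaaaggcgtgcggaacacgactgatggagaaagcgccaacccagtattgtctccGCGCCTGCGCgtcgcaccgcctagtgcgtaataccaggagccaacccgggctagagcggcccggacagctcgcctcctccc
Mrps26: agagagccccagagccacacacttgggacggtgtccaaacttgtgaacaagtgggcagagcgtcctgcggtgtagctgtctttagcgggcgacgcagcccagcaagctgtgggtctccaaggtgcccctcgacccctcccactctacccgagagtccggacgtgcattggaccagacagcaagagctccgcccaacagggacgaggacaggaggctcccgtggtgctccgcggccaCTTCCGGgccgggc

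Of the 78 members, 69 have a window in the RefSeq promoter table. An ETS match was found in 17 of these 69 windows (24.6%), against 1518 of 11906 windows of all genes tested (12.75%). NRF1 matched 10 (14.5%), against 7.59% of all windows, and YY1 matched 4 (5.80%), against 1.95%. GATA matched 11 (15.9%), against 6.58%. Split by what they did in the second sampling, 4 of 13 windows of members that rose and 6 of 45 of those that fell hold an NRF1 match, 2 and 12 an ETS match, and 3 and 6 a GATA match. A match is a run of letters in this window and does not show that a factor binds there.

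Total counts per library ranged from 21444129 to 71967299, with a median of 36448181, and the members took between 0.0182% and 0.0622% of them. The counting error of a single low member in a single library is therefore large: 11 members have a median count under 50, with the lowest, Mrps6, at 14. The share of counts on globin genes had a median of 3.58% in cohorts 1 to 4, 6.84% in cohort 5, 7.83% in cohorts 6 to 9 and 3.59% in SPF libraries, so results are also given within cohorts 1 to 4 and within cohorts 6 to 9. Libraries far from the rest of their group over all genes numbered 8. Among them were replicates 5, 7 and 10 of cohort 9 and replicate 4 of cohort 1 on day 44. Replicate 7 of cohort 4 on day 40 was another. In all of these the erythroid marker list averaged 9.78 to 10.7 on the log2 CPM scale, against a median of 8.09 over the second sampling. Also far were SPF replicate 3 on day 44, replicate 3 of cohort 6 on day 19 and replicate 1 of cohort 8 on day 26. No library of those groups had an erythroid average above 7.23, 7.91 and 8.29, in that order.

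In the table's GRCm39 coordinates 40 of the 78 members overlap another gene, 35 of them one on the opposite strand and 12 one on the same strand. The strand setting of the counting is not given in the sources used here, so reads of such pairs cannot be told apart. The partner has the higher median count for 14 members: Mrps6 (median count 14), for example, lies on the same strand as Slc5a3 (median count 233). Mrpl33, at chr5:31754279-31821728 on the plus strand, spans 67450 bases in this annotation and overlaps Rbks on the opposite strand. Of 6 processed pseudogenes named after members, Mrpl23-ps1 had a higher median count (81.6) than Mrpl23 itself (60.9), which makes the level of Mrpl23 uncertain.

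Levels were compared between genes by the deposited TPM, which is scaled by transcript length. Mrpl33, a small protein of the large subunit, had the highest median at 21.7 TPM (5.51 to 89 over the libraries). Mrps21, a small subunit protein, followed at 15.9 TPM (6.18 to 65.1), and Mrpl32, a large subunit protein whose maturation by the m-AAA protease is known to gate ribosome assembly, at 7.84 TPM (3.39 to 24). At the other end stood Mrps6 at 0.143 TPM, Mrpl45, which anchors the ribosome to the inner membrane, at 0.151 TPM, and Mrps27 at 0.181 TPM. The median over the members was 0.795 TPM, 44 members lay under 1 TPM, and the highest median was 151.8 times the lowest. Most of these proteins are present as a single copy in the assembled ribosome.

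**Figure D1:**
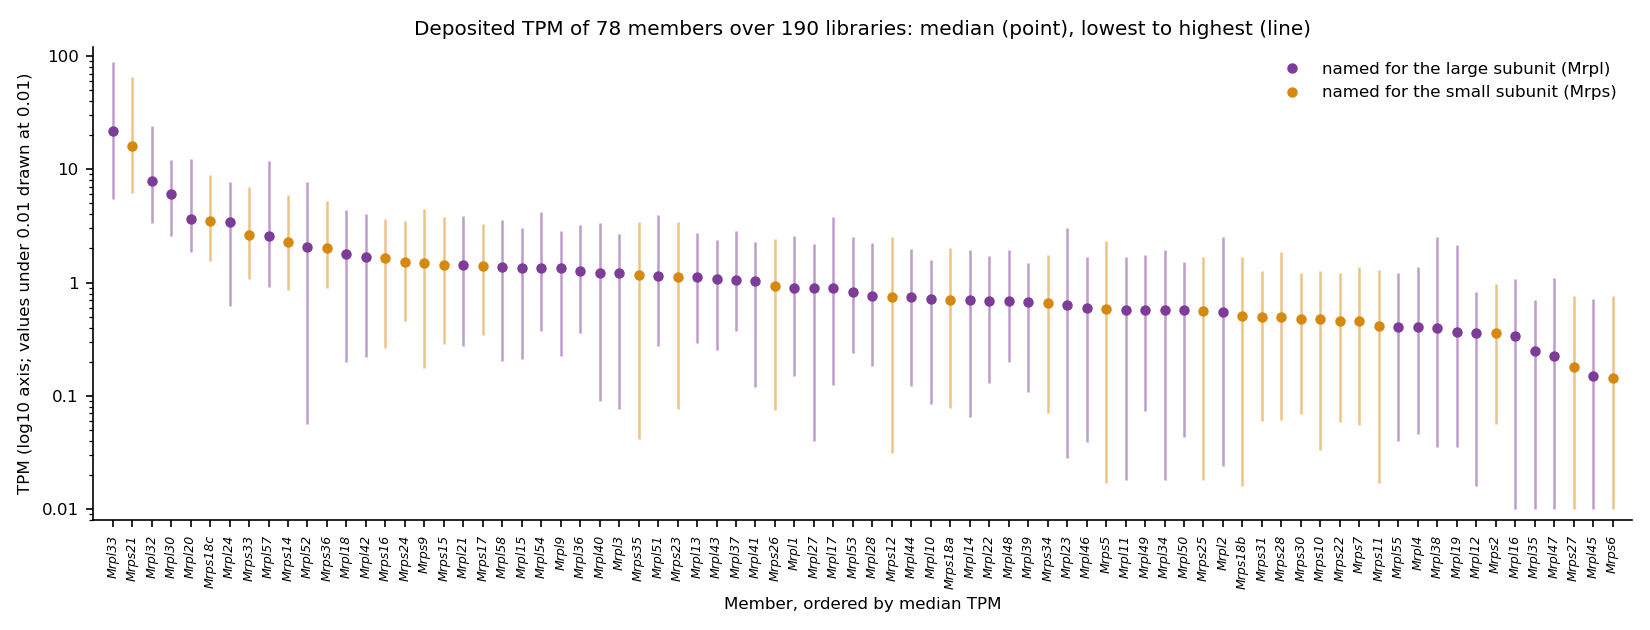
Deposited TPM of the 78 members on a log10 axis, ordered by median, with the median over 190 libraries as a point and the lowest to highest library as a line, coloured by the subunit in the name. Mrpl33, Mrps21 and Mrpl32 stand at 21.7, 15.9 and 7.84 TPM, and 44 members have a median under 1 TPM.

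These 3 genes took a median of 44.9% of the summed TPM of the members in the second sampling (23.9% to 61.5% over 90 libraries), 32.2% in the first (23.1% to 58.2% over 90) and 25.8% in SPF mice (23.6% to 30.9% over 10). The ranges overlap, but the highest SPF library lies below the medians of both conventional samplings. The geometric mean over the members, which weighs every gene alike, ran the other way. It had a median of 3.19 CPM (library-size scaled counts, here after TMM scaling) in the second sampling (2.55 to 4.56), 3.46 CPM in the first (2.68 to 4.14) and 3.66 CPM in SPF mice (3.31 to 4.02). The abundant members and the rest are therefore described apart below. In whole blood, fewer cells of a type and less RNA per cell cannot be told apart.

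Over the first-sampling days most members declined. The median over libraries of the geometric mean was 3.87, 3.87, 3.61, 3.35, 3.50, 3.42, 3.22, 3.24 and 3.21 CPM on days 2, 5, 9, 12, 16, 19, 23, 26 and 30. In a slope over the 90 libraries, 59 members fell and 3 rose at an adjusted p under 0.05 over all genes by edgeR's quasi-likelihood test, which is 79.5% of the members, against 52.3% of the 18192 genes tested. Falls alone took in 75.6% of the members and 25.8% of all genes. The median slope over the members was -0.12 on the log2 scale per 10 days, against -0.00019 over all genes. With the shares of globin and mitochondrial rRNA as covariates, which differ between cohorts along these days, 25 members fell and 3 rose, against 31.4% of all genes called.

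Mrpl33 rose most. Its median was 18.6, 22.5, 26.7, 33, 26.5, 39.8, 61, 41.5 and 50.2 CPM on days 2 to 30, and all 10 libraries of day 30 (40.9 to 93.7 CPM) lay above all 10 of day 2 (15.9 to 24.5 CPM). The slope was 0.57 log2 per 10 days (SE 0.050, adjusted p = 4.27e-17 by edgeR's quasi-likelihood test). Mrpl32 rose with a slope of 0.21 (SE 0.038, adjusted p = 1.48e-06 by edgeR) and Mrps15, a small subunit protein, with a slope of 0.16 (SE 0.037, adjusted p = 9.44e-05). For both, the libraries of day 30 and day 2 overlap, at 21.1 to 59.7 against 18.2 to 27.3 CPM for Mrpl32 and at 2.32 to 4.71 against 1.92 to 3.30 CPM for Mrps15.

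The 5 steepest falls were those of Mrpl34, Mrpl2, Mrps34, Mrpl11 and Mrpl46. Mrpl11, part of the stalk region where translation factors bind, had medians of 3.64, 3.41, 2.87, 2.25, 2.61, 2.20, 1.87, 2.11 and 2.08 CPM over the days, and its slope was -0.27 (SE 0.037, adjusted p = 1.03e-09 by edgeR's quasi-likelihood test). Most of that fall lay between days 2 and 12. Mrpl34 had a slope of -0.32 (SE 0.073, adjusted p = 1.34e-04) at a low level, with 0.173 to 1.01 CPM on day 30 and 0.761 to 1.52 CPM on day 2. For Mrpl2, near the peptidyl transferase centre, the slope was -0.31 (adjusted p = 6.69e-06), with 0.625 to 2.17 CPM on day 30 and 1.32 to 2.62 CPM on day 2. Mrps34 (-0.28) and Mrpl46 (-0.26) fell alike, and the libraries of day 30 and day 2 overlap for all 5 genes. Mrps26, whose promoter is printed above, fell with a slope of -0.26 (adjusted p = 2.37e-08 by edgeR), with medians of 2.59 CPM on day 30 and 4.33 CPM on day 2.

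Set against day 2 one day at a time, no member was called on day 5 (0.143% of all genes were; 3 members had an unadjusted p under 0.05 by edgeR's quasi-likelihood test, and no other tool was run on single days). On day 9 only Mrpl27 was called, at a log2 value of -0.62 (2.69% of all genes). From then on the counts grew. On day 12, 12 members were lower and 1 higher, against 3.56% and 8.7% of all genes (12.3% together). On day 16 they were 9 and 1, against 4.26% and 8.2% (12.5%). Day 19 gave 23 and 2, against 12.9% and 17.4% (30.2%), and day 23 gave 33 and 3, against 16.7% and 19.9% (36.6%). For day 26 the counts were 34 and 1, against 14.3% and 16.7% (31.1%), and for day 30 they were 37 and 3, against 16.7% and 20.7% (37.4%). A test for any difference among the 9 days called 51 members (65.4%, against 57% of all genes). The comparisons of single days share the 10 libraries of day 2.

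Slopes were also fitted within the early and within the late cohorts, and no test of the difference between these sets was run. Within cohorts 1 to 4 (days 2 to 12) 24 members fell and 2 rose (23.3% of all genes were called), with slopes of 0.78 for Mrpl33 and -0.58 for Mrpl11. Within cohorts 6 to 9 (days 19 to 30) 1 member was called (2.53% of all genes), and Mrpl33 had a slope of 0.26 (adjusted p = 0.588 by edgeR). In the first-sampling libraries of score 0 alone, 37 members fell and 3 rose (34.7% of all genes), with a slope of 0.47 for Mrpl33. Blood cell markers moved over the same days: 20 of 20 neutrophil markers rose (median slope 1.17), 15 of 17 B cell markers fell (median -0.28) and 10 of 19 erythroid markers rose (median 0.12). With the mean levels of the neutrophil, B cell, T cell and erythroid lists as covariates, 14 members were called, all lower, and Mrpl33 was not among them. The share of all genes called in that fit is not given here, so the count does not set the members apart from other genes.

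**Figure D2:**
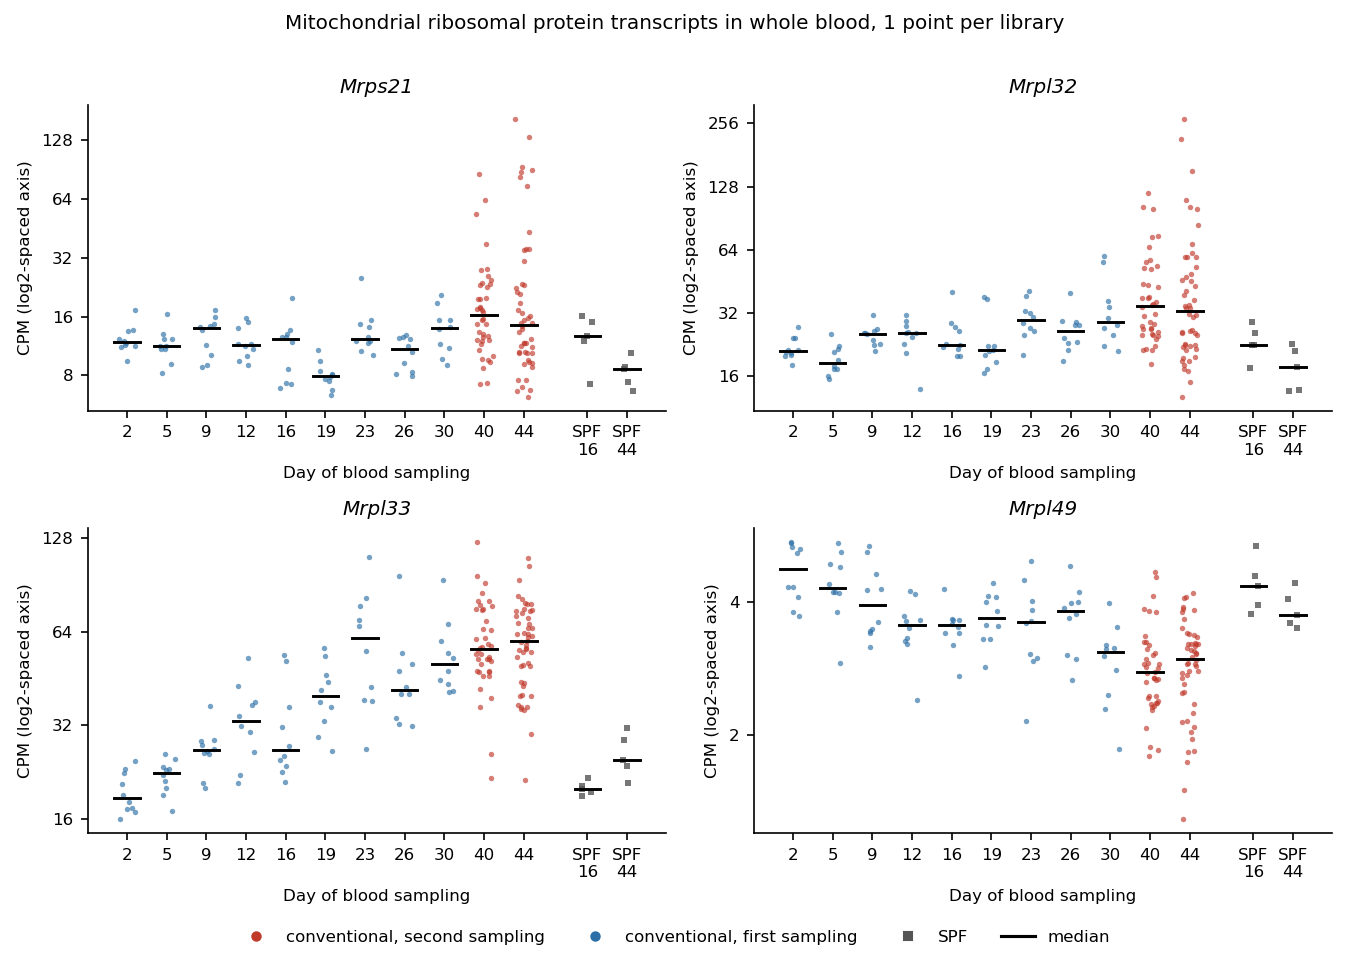
CPM of Mrps21, Mrpl32, Mrpl33 and Mrpl49 in every library on a log2-spaced axis, by sampling day, with conventional libraries of the first sampling (days 2 to 30) and of the second (days 40 and 44) as circles, SPF libraries as squares and medians as bars. Mrpl33 climbs over the first-sampling days, to a median of 50.2 CPM on day 30 against 18.6 CPM on day 2, whereas Mrps21 and Mrpl32 spread upwards mainly on days 40 and 44, where single libraries reach 162.8 and 268 CPM.

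Between the samplings the members divided further. With cohort as a covariate over 180 libraries, 13 members rose and 50 fell in the second sampling, 80.8% of the members against 62.1% of all genes (31.4% higher, 30.6% lower), with a median log2 value of -0.20 over the members and -0.019 over all genes. How many count as higher depends on the scaling: with total counts without the abundant RNAs, which lowers the median of all genes by 0.39, 3 members rose and 72 fell (75.9% of all genes were called). The 50 falls were all falls on that scale too, which follows from its downward shift and adds no support for them. All 13 of the members called higher lay above the all-gene median there, as a shift shared by most genes would leave them.

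Mrps21 rose most. It had 6.24, 15.1 and 162.8 CPM as lowest, median and highest in the second sampling and 6.38, 11.6 and 25.1 CPM in the first, a log2 change of 0.95 (SE 0.12, adjusted p = 9.84e-12 by edgeR's quasi-likelihood test). The lowest libraries were alike, and the difference lay in libraries of the second sampling far above the range of the first. Mrpl32 had 12.8, 33.8 and 268 CPM in the second sampling and 13.9, 24.3 and 59.7 CPM in the first, a log2 change of 0.79 (SE 0.10, adjusted p = 1.97e-11). Mrpl20, a large subunit protein, had 3.01, 7.34 and 64.2 CPM in the second and 3.80, 6.03 and 9.95 CPM in the first, a log2 change of 0.69 (SE 0.099, adjusted p = 5.08e-10). All 3 share the long upper tail. Without the 8 libraries that stand far from their groups, the values were 0.68 for Mrps21, 0.59 for Mrpl32 and 0.49 for Mrpl20. In that fit 10 members rose while 53 fell. The share of all genes called there is not given here, so these counts do not set the members apart.

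Mrpl33 moved in another way. It had 21.3, 57.4 and 124.4 CPM in the second sampling and 15.9, 32 and 111.4 CPM in the first, a log2 change of 0.78 (SE 0.075, adjusted p = 4.41e-18 by edgeR's quasi-likelihood test). Here the middle of the distribution shifted, not its upper end, and the value was 0.83 without the far libraries. Mrps15 had 1.54, 3.96 and 6.53 CPM in the second sampling and 1.71, 3.02 and 4.84 CPM in the first, a log2 change of 0.41 (SE 0.052, adjusted p = 3.78e-12). The ranges of the samplings overlap for every gene named here.

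The other 8 members called higher lay between 0.18 (Mrpl37) and 0.45 (Mrpl57), and all 8, with Mrps14, Mrpl53, Mrps18c, Mrps33, Mrpl30 and Mrps24 among them, were below 0 with total counts as the scale. Mrpl57, a large subunit protein found in mitochondrial ribosomes and not in bacterial ones, had medians of 4.77 CPM in the second and 4.69 CPM in the first sampling, with a highest library of 40.6 CPM in the second and 7.63 CPM in the first.

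The 50 falls were smaller and more even, from -0.14 to -0.38. Mrpl49 fell most, with 1.29, 2.89 and 4.66 CPM in the second sampling and 1.86, 3.67 and 5.47 CPM in the first, a log2 change of -0.38 (SE 0.047, adjusted p = 1.34e-12 by edgeR's quasi-likelihood test). Mrpl50 had 0.913, 3.75 and 5.91 CPM in the second and 2.44, 4.80 and 7.09 CPM in the first (log2 -0.37, adjusted p = 9.52e-10). For Mrps26 the values were 0.792, 2.43 and 4.29 CPM in the second and 1.47, 3.09 and 5.32 CPM in the first (log2 -0.35). Mrps5, which lines the mRNA entry of the small subunit, fell by 0.35 on the log2 scale, as did Mrpl12. In each of these the whole range shifted down, with most libraries of the samplings overlapping.

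**Figure D3:**
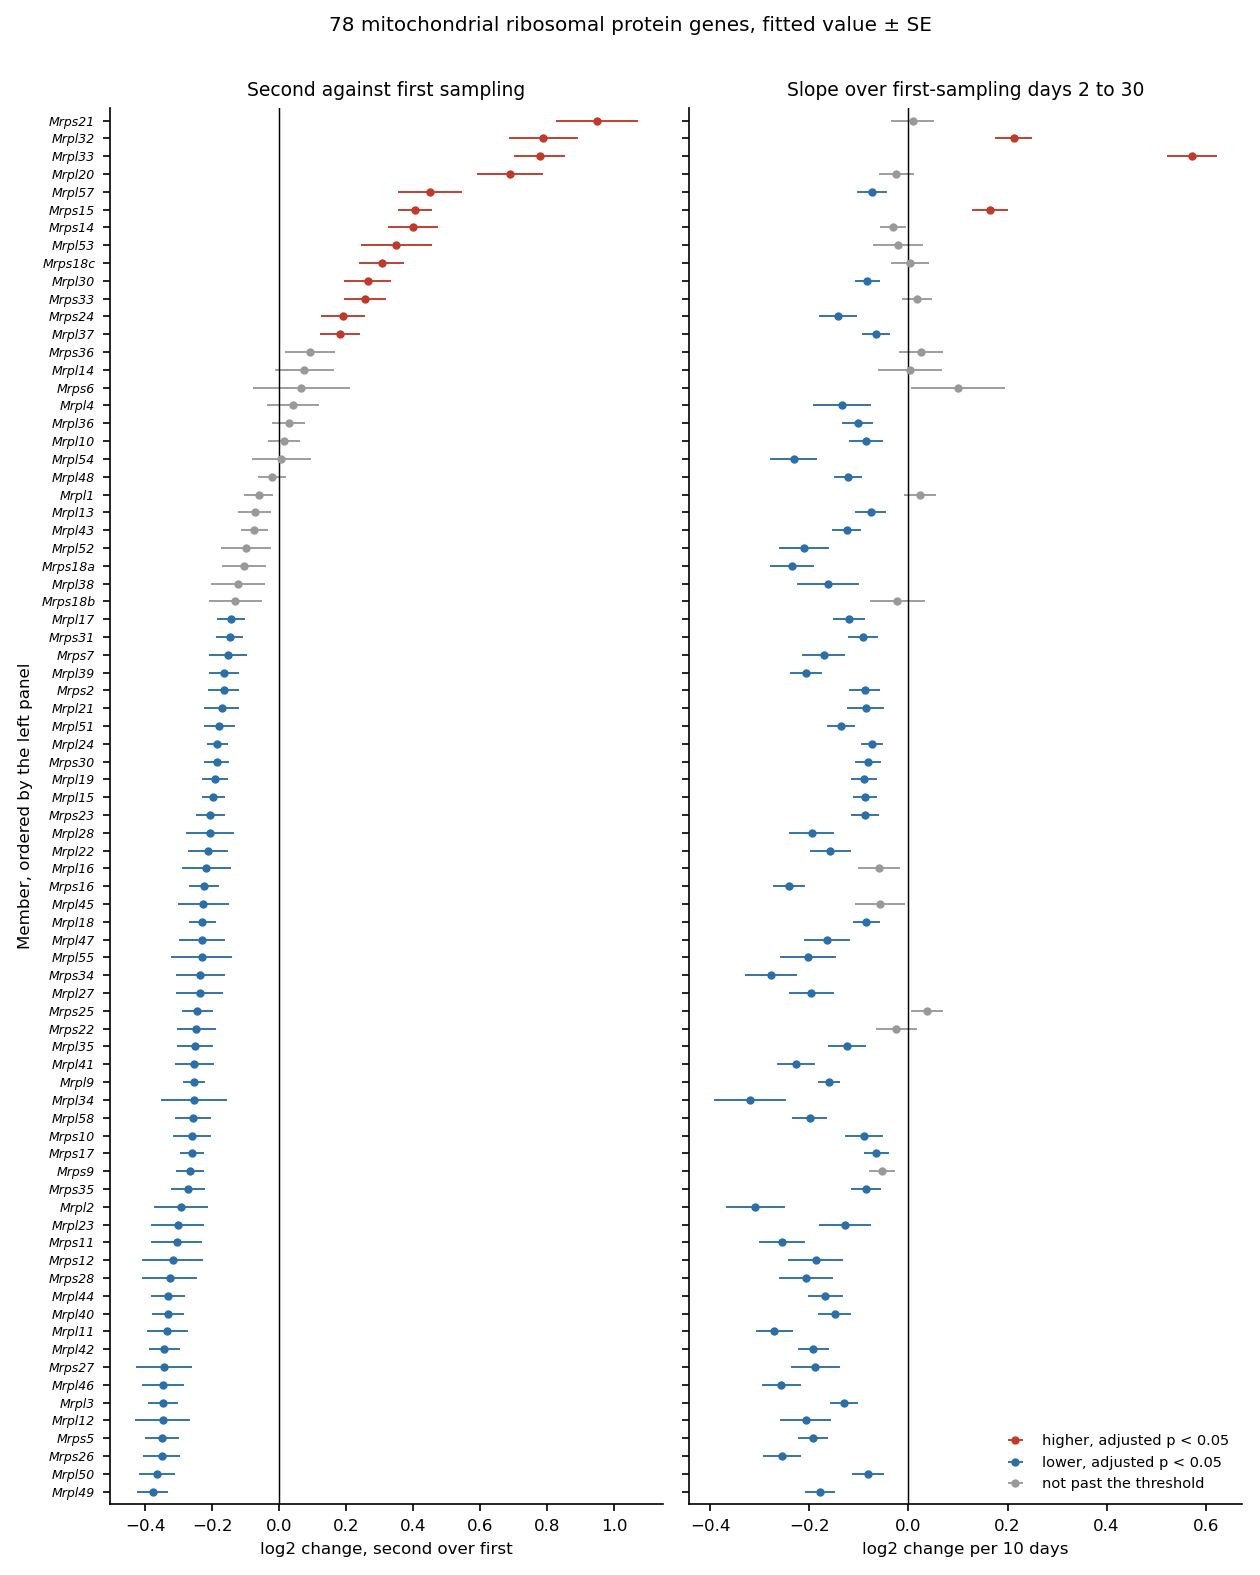
Fitted log2 values with their SE for all 78 members, ordered by the change in the second over the first sampling (left panel), with the slope per 10 days over the first-sampling days in the same order (right panel) and colours for adjusted p under 0.05. On the left 13 members lie to the right (Mrps21 at 0.95) and 50 to the left (Mrpl49 at -0.38), and on the right Mrpl33 stands alone at 0.57. The panels share the 90 first-sampling libraries.

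The change differed between cohorts. By a test of whether the 9 changes differ, 14 members were called (17.9%, against 35.3% of all genes), with Mrpl33 at the smallest adjusted p (5.71e-07 by edgeR's quasi-likelihood test). The log2 change of Mrpl33 was 1.45, 1.45, 1.10, 0.87, 1.01, 0.50, -0.15, 0.41 and 0.36 in cohorts 1 to 9, so that it was large where the first sampling was early and small where it was late. Mrps21 showed no such order, with 1.54, 1.31, 0.70, 0.96, 0.13, 0.92, 0.95, 0.41 and 1.59, and it was not called by the test of the difference.

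Taken singly, cohort 1 had 32 members lower and 9 higher, against 15.1% and 23.9% of all genes (39.1% together). Cohort 2 had 37 and 8, against 21.8% and 25.3% (47.1%), cohort 3 had 13 and 2, against 10.2% and 15.1% (25.3%), and cohort 4 had 14 and 7, against 14.7% and 16.2% (30.9%). Cohort 5 had 5 and 2, against 4.99% and 9.86% (14.8%), and cohort 6 had 10 and 0, against 9.69% and 11.4% (21.1%). In cohort 7 Mrps17 alone was called, at -0.34, against 1.44% of all genes lower and 1.21% higher (2.66%). In cohort 8 none was, against 0.308% and 1.17% (1.47%), and 10 members had an unadjusted p under 0.05 by edgeR's quasi-likelihood test, the sole tool run on single cohorts. Cohort 9 had 0 members lower and 10 higher, against 0.572% and 6.71% of all genes (7.28%), so the calls over all genes leaned to the same side there. It holds 3 of the 8 far libraries. Within cohorts 1 to 4 together 53 members fell and 13 rose (63.2% of all genes were called), and within cohorts 6 to 9 together 8 fell and 8 rose (19.9%). Mrps21 (1.13 and 0.97), Mrpl32 (1.09 and 0.58), Mrpl33 (1.22 and 0.28) and Mrpl49 (-0.52 and -0.25) kept their directions in both sets of cohorts.

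Blood cell markers differed between the samplings as well. Of the neutrophil markers 20 of 20 rose in the second sampling, with a mean level of 3.86 to 8.89 on the log2 CPM scale (median 6.77) against 3.18 to 8.23 (median 5.17) in the first. Of the erythroid markers 19 of 19 rose, at 6.72 to 10.7 (median 8.09) against 6.82 to 8.65 (median 7.47). All 17 B cell markers fell, at 3.17 to 5.51 (median 4.37) against 3.35 to 5.49 (median 5.00), and 14 of 18 T cell markers fell while 1 rose. With the same list means as covariates as for the slopes, 1 member was called higher and 1 lower. The share of all genes called in that fit is not given here, so the loss of calls may not be particular to the members. Of the 13 members called higher 6 stayed above 0 in that fit, and of the 50 called lower 40 stayed below 0.

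The markers were then set against each member over the 190 libraries after the mean of each group had been removed, so that days, samplings and housing do not enter. For the erythroid list, Mrps21 gave Pearson's r = 0.93 and Spearman's rho = 0.87, Mrpl32 r = 0.91 and rho = 0.83, Mrpl20 r = 0.90 and rho = 0.81, and Mrpl57 r = 0.83 and rho = 0.67. High values were common for this list: the top 5% of all genes began at r = 0.84, above Mrpl57 and below the other 3. Each had a permutation p of 1e-05, the smallest that 100000 permutations can give, and an adjusted p of 3.35e-05 for r over the 312 relations computed. Leaving out the 2 libraries farthest from the median left r at 0.92, 0.90, 0.89 and 0.80, and leaving out the 8 far libraries left it at 0.92, 0.89, 0.88 and 0.77. In the second sampling alone r was 0.96, 0.95, 0.94 and 0.89, and in the first, where the erythroid list varied less, 0.76, 0.71, 0.64 and 0.34.

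Mrpl33 was related to another list. Its r with the neutrophil markers was 0.91 (rho = 0.89, permutation p = 1e-05 for both), 0.90 without the 2 farthest libraries, 0.91 in the second sampling and 0.92 in the first, while its r with the erythroid markers was -0.039. The top 5% of all genes began at r = 0.62 for the neutrophil list. Mrps15 followed with r = 0.41 and rho = 0.37 with the neutrophil list, and r = -0.22 with the erythroid list. The highest r with the B cell markers were those of Mrps35 (0.67), Mrps9 (0.65) and Mrps16 (0.59), and Mrps9 also had the lowest r with the erythroid list (-0.64).

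Over all members, r with the B cell list was positive for 45 and negative for 14 at an adjusted permutation p under 0.05, with a median of 0.23 against 0.018 over all genes. For the T cell list the counts were 40 and 16 (median 0.18 against 0.0073 over all genes), for the neutrophil list 7 and 38 (median -0.17 against -0.040), and for the erythroid list 21 and 39 (median -0.18 against -0.074). Among the 13 members higher in the second sampling, 11 were positively related to the erythroid list and 11 negatively to the B cell list. Of the 50 lower members, 42 were positively related to the B cell list, 36 to the T cell list, and 34 negatively to the neutrophil list. The share of all genes past the same cut is not given here, so these counts do not set the members apart. The top 5% of all genes began at r = 0.54 for the B cell list and 0.47 for the T cell list. The lists are themselves related (r = -0.67 between neutrophil and B cell lists, 0.62 between B and T cell lists), and all values of a library share its depth and scaling.

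**Figure D4:**
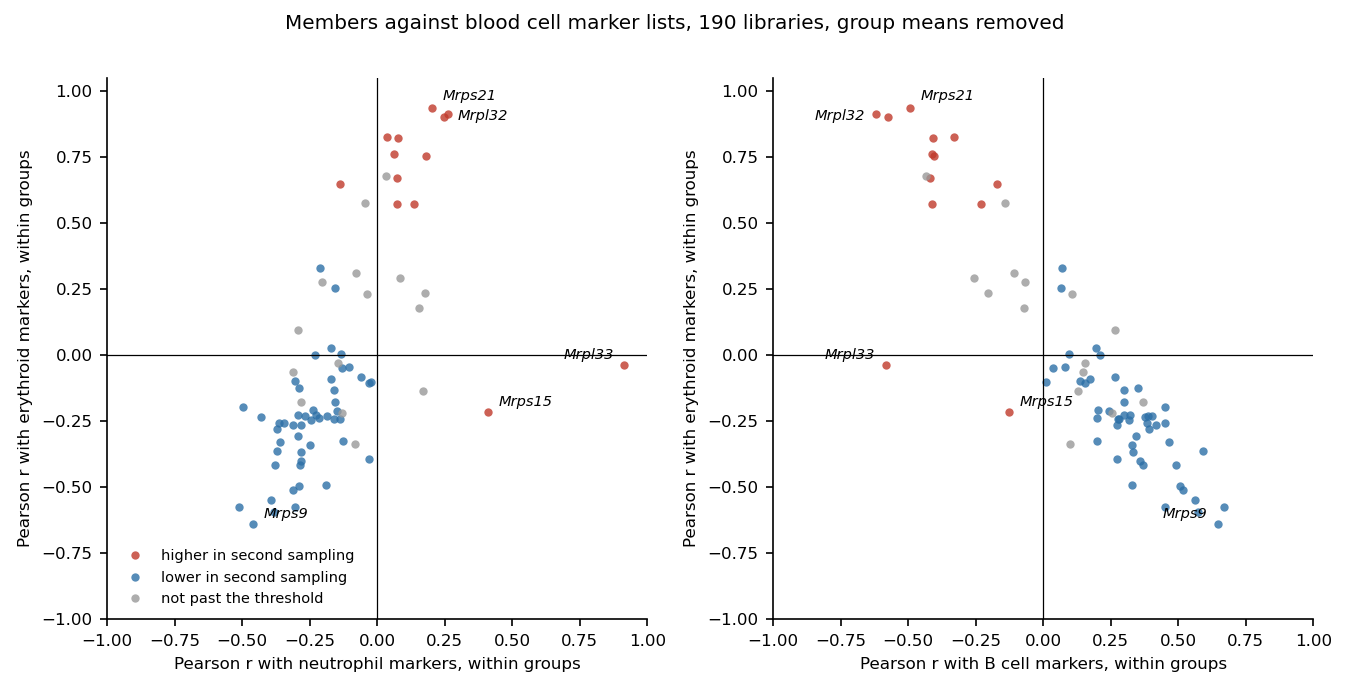
Pearson's r of each member with the erythroid marker list (vertical axis) against its r with another marker list (horizontal axis, 1 list per panel) over 190 libraries with group means removed, coloured by the call in the second over the first sampling. Members called higher lie mostly near the top, led by Mrps21 at 0.93, apart from Mrpl33, which has 0.91 with the neutrophil list and -0.039 with the erythroid list, and most members called lower have a negative r with the erythroid list.

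The dermatitis score was examined within each sampling, with cohort as a covariate. In the 90 libraries of the second sampling 26 members fell and 11 rose with the score, 47.4% of the members against 36.6% of all genes, and the median slope per score unit was -0.047 over the members and -0.024 over all genes. With total counts as the scale 65 fell and 3 rose, against 59.4% of all genes called, and the median slope was -0.24 over the members and -0.22 over all genes. The members that rose were led by Mrps21, with a slope of 0.53 (SE 0.12, adjusted p = 4.11e-04 by edgeR's quasi-likelihood test), Mrpl32 (0.42), Mrpl20 (0.41), Mrpl53 (0.35) and Mrpl57 (0.32), and these 5 stayed above 0 on the other scale while the remaining 6, Mrpl33 among them, lay below 0 there. Those 6 were Mrps14, Mrpl30, Mrpl14, Mrpl33, Mrps24 and Mrps33.

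The median of Mrps21 was 9.20, 10.6, 9.62, 13.8, 20.9 and 34.9 CPM at scores 0, 0.5, 1, 2, 3 and 4, from 7, 5, 11, 27, 39 and 1 libraries. The 39 libraries of score 3 ran from 7.61 to 131.8 CPM and the 7 of score 0 from 6.24 to 12.2 CPM, so that the score 0 libraries lay at or below the lower end of the score 3 range. For Mrpl33 the medians were 36, 69, 55.8, 52.2, 62.9 and 75.5 CPM, with no steady order above score 0, and the slope was 0.16 (adjusted p = 0.00559 by edgeR). The geometric mean of the members had medians of 3.36, 3.10, 3.20, 3.24, 3.18 and 3.42 CPM.

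The largest fall with the score was that of Mrps6, at -0.36 (adjusted p = 0.00566 by edgeR), with a median of 0.300 CPM at score 3 against 0.357 CPM at score 0, a level of few reads. Mrpl23 (-0.21), Mrpl16 (-0.19), Mrps10 (-0.18) and Mrps35 (-0.17) came next, and for Mrps35 the medians were 5.40, 4.05, 5.24, 4.30, 4.00 and 3.45 CPM over the scores. Markers moved with the score too: 20 of 20 neutrophil markers rose, 19 of 19 erythroid markers rose and 17 of 17 B cell markers fell. With the list means as covariates no member was called (2 had an unadjusted p under 0.05 by edgeR). Within cohorts 1 to 4 the count was 14 higher and 6 lower, with Mrps21 at 0.77. Within cohorts 6 to 9 it was 0 (11 with an unadjusted p under 0.05 by edgeR's quasi-likelihood test), with Mrps21 at 0.31 (adjusted p = 0.539). The shares of all genes called with the list means and within these sets of cohorts are not given here. These counts therefore do not set the members apart from other genes.

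In the 60 first-sampling libraries of days 12 to 30 only Mrpl33 and Mrpl15 were called, while 10% of all genes were. Mrpl33 had medians of 32.4, 50.2, 43.3, 68.5 and 52.7 CPM at scores 0, 0.5, 1, 2 and 3, from 28, 9, 12, 10 and 1 libraries, and a slope of 0.40 (SE 0.087, adjusted p = 0.0025 by edgeR). The 10 libraries of score 2, at 40.3 to 111.4 CPM, lay in the upper part of or above the 28 of score 0, at 20.9 to 56.7 CPM. Mrpl15, a large subunit protein, fell with a slope of -0.14 (SE 0.046, adjusted p = 0.0394), a call lost without the far libraries. The slope of Mrps21 was 0.14 (adjusted p = 0.243), and its medians were 11.1, 10.8, 10.4, 12.6 and 13.8 CPM. No member was called in a test of whether the slopes of the samplings differ (0% of all genes; 3 members had an unadjusted p under 0.05 by edgeR, the sole tool run on it). The smallest p among them was that of Mrpl4 (log2 difference 0.42, second minus first).

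**Figure D5:**
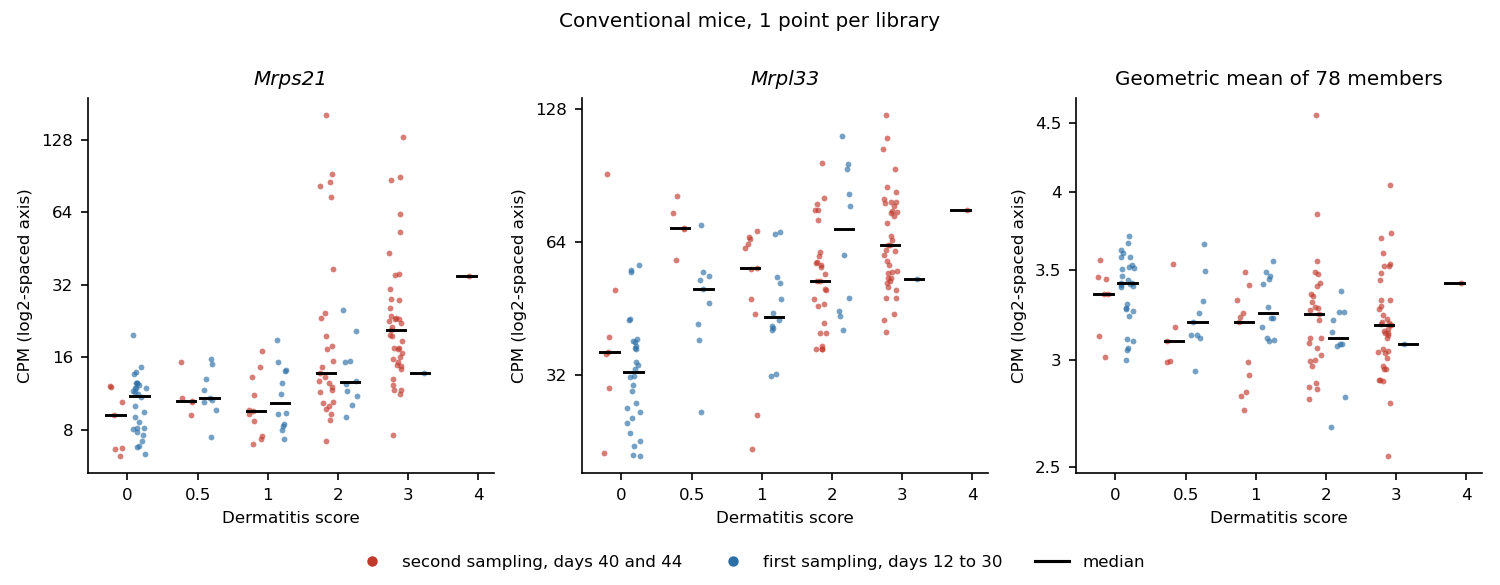
CPM of Mrps21, Mrpl33 and the geometric mean of the 78 members in conventional libraries on log2-spaced axes, by dermatitis score, with the second sampling (days 40 and 44) and the first (days 12 to 30) side by side and medians as bars. Mrps21 has medians of 20.9 CPM at score 3 and 9.20 CPM at score 0 in the second sampling, Mrpl33 has 68.5 CPM at score 2 and 32.4 CPM at score 0 in the first, and the geometric mean stays within 3.09 to 3.42 CPM by median.

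Conventional mice differed from SPF mice on day 44 in 13 members, 2 higher and 11 lower (16.7% of the members, 19.7% of all genes), with a median log2 value of -0.32 over the members and -0.0019 over all genes. When the conventional libraries were limited to those of score 0 or 0.5, 0 members and 0% of all genes were called. In that fit 14 members had an unadjusted p under 0.05 by edgeR's quasi-likelihood test, and the median over the members was -0.20. The limit kept few of the 50 conventional libraries. The lack of calls therefore does not show that the difference was absent at these scores. Mrpl33 was higher, at 21.3, 59.6 and 110.03 CPM (lowest, median and highest of 50) in conventional mice and 24.7, 31.4, 20.8, 23.6 and 28.6 CPM in SPF mice (log2 1.21, SE 0.23, adjusted p = 1.55e-04 by edgeR's quasi-likelihood test). Of the 5 SPF values 4 lie at the low end of the conventional range and 1 below it. Mrps15 was the other, at 1.96, 3.88 and 5.95 CPM in conventional mice and 2.83, 2.73, 3.24, 2.85 and 2.87 CPM in SPF mice (log2 0.45), though with total counts as the scale its value was -0.14.

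Mrps21 and Mrpl32 had log2 values of 1.72 (SE 0.71, adjusted p = 0.0746 by edgeR) and 1.45 (adjusted p = 0.0564), past no threshold. Mrps21 ran from 6.24 through a median of 14.6 to 162.8 CPM in conventional mice, with 8.82, 6.67, 8.68, 10.4 and 7.39 CPM in SPF mice, all below the conventional median. Mrpl32 had 22.8, 13.6, 13.8, 21 and 17.8 CPM in SPF mice.

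Among the 11 lower members, Mrpl9, a large subunit protein, had 3.92, 6.17 and 8.58 CPM in conventional mice and 8.17, 8.95, 8.32, 10.1 and 8.63 CPM in SPF mice (log2 -0.51, SE 0.10, adjusted p = 2.76e-04 by edgeR's quasi-likelihood test). The groups overlap only between 8.17 and 8.58 CPM. Mrps5 had 1.54, 2.79 and 4.23 CPM against 4.15, 3.63, 5.66, 4.21 and 3.98 CPM in SPF mice (log2 -0.64, adjusted p = 0.00112), and Mrps26 had 0.792, 2.74 and 4.29 CPM against 4.61, 4.29, 4.05, 4.78 and 3.05 CPM (log2 -0.67, SE 0.18, adjusted p = 0.00693). In both the SPF values stand in the upper part of the conventional range or above it. Mrpl44, with an RNase III fold beside the exit tunnel, followed at 1.29, 2.79 and 4.37 CPM against 4.95, 3.43, 4.38, 4.73 and 4.38 CPM (log2 -0.61, adjusted p = 0.00365), and Mrpl46 at 0.598, 1.81 and 3.30 CPM against 2.64, 2.43, 3.19, 2.77 and 3.29 CPM (log2 -0.63, adjusted p = 0.0292).

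With total counts as the scale the day 44 split was 0 higher and 52 lower, against an all-gene median of -0.59 and 30.3% of all genes called. The count changed when single SPF libraries were left out: it was 8 without SPF replicate 3, 5 without replicate 4 and 7 without replicate 5. The shares of all genes called in those fits are not given here, so the drop may not be particular to the members. Of the markers, 20 of 20 neutrophil genes were higher in conventional mice (median 3.17), 15 of 19 erythroid genes were higher (median 1.76) and 16 of 17 B cell genes were lower (median -0.98). With the list means as covariates 0 members were called (4 had an unadjusted p under 0.05 by edgeR), and the share of all genes called in that fit is not given here.

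On day 16 no member was called between the 10 conventional mice of cohort 5 and the SPF mice, while 0.473% of all genes were (9 members had an unadjusted p under 0.05 by edgeR's quasi-likelihood test, and DESeq2 called 1). Mrpl33 had 21, 26.5 and 53.7 CPM (lowest, median and highest) in cohort 5 and 19.9, 20.5, 19.0, 19.5 and 21.6 CPM in SPF mice, which overlap only between 21 and 21.6 CPM (log2 0.66, SE 0.21, adjusted p = 0.132 by edgeR). Mrpl36 (-0.39) and Mrps16 (-0.44) had the next smallest p. SPF replicate 3 of that day had 45.3% of its counts on globin genes.

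From day 16 to day 44, 2 members rose and 5 fell in cohort 5, against 8.49% and 3.88% of all genes (12.4% together). Mrpl33 had 36, 60.7 and 110.03 CPM on day 44 and 21, 26.5 and 53.7 CPM on day 16 (log2 1.01, adjusted p = 9.73e-05 by edgeR), with overlap in the upper part of day 16, and Mrps15 rose by 0.61 on the log2 scale (adjusted p = 0.00402). Mrpl38 (-0.79), Mrpl2 (-0.59), Mrpl41 (-0.59), Mrpl42 (-0.50) and Mrpl44 (-0.45) fell. All 7 kept their sign with total counts as the scale, but of them only Mrpl33 (0.83) and Mrpl38 (-0.92) were called there, and without the filter only Mrpl33, Mrps15 and Mrpl42 were. Over the same days 20 of 20 neutrophil markers rose in cohort 5 (median 1.89), 7 of 17 B cell markers fell (median -0.56) and 0 of 19 erythroid markers were called, and their part in these changes was not tested. In SPF mice no member was called over the same days (0% of all genes; 1 member had an unadjusted p under 0.05 by edgeR, and DESeq2 called 0). The test of the difference of these changes called none either (0% of all genes; 6 members had an unadjusted p under 0.05 by edgeR's quasi-likelihood test, and DESeq2 called 0), so the changes of cohort 5 and of SPF mice were not shown to differ.

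By the subunit in their names, the 49 members named for the large subunit had 31 falls and 7 rises in the second over the first sampling. The 29 named for the small subunit had 19 falls and 6 rises. Over the first-sampling days the counts were 41 falls and 2 rises and 18 falls and 1 rise. The 3 proteins at the stalk base and GTPase centre, Mrpl10, Mrpl11 and Mrpl12, all fell over the days (slopes of -0.086, -0.27 and -0.21). In the second sampling Mrpl11 (-0.33) and Mrpl12 (-0.35) fell, while Mrpl10 had 0.015 and was not called, with a value of -0.35 when total counts were the scale. The 6 members around the exit tunnel, Mrpl22, Mrpl23, Mrpl24, Mrpl44, Mrpl45 and Mrpl47, fell in the second sampling without exception, and 5 of 6 fell over the days. Over all members 64.1% fell in the second sampling and 75.6% over the days. No test set these groups against the other members.

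Mrps12, in the decoding centre, fell over the days (-0.19) and in the second sampling (-0.32), with medians of 0.703 CPM in the second and 0.927 CPM in the first. Mrpl58, a peptidyl-tRNA hydrolase built into the large subunit that can free stalled chains, fell over the days (-0.20) and in the second sampling (-0.26). Of the Mrps18 paralogues only Mrps18c was called. It rose in the second sampling (0.31, adjusted p = 2.88e-05 by edgeR's quasi-likelihood test), though it had -0.17 with total counts as the scale. Mrps18a, which sits in the large subunit despite its name, had -0.11 and Mrps18b had -0.13, neither past the threshold. Mrps36, now known as a component of the oxoglutarate dehydrogenase complex rather than of the ribosome, had 0.092 and was not called, and it lay at -0.40 on the total-count scale.

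Members were also split by whether bacteria have a counterpart. Of 46 with a counterpart 28 fell and 9 rose in the second sampling, and of 32 without one 22 fell and 4 rose. Over the days the counts were 33 falls and 3 rises of 46, and 26 falls and 0 rises of 32. No test of the difference between these groups was run.

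Other genes of mitochondrial translation mostly fell with the members. Of 5 ribosomal subunits with other names, Gadd45gip1 (-0.39), Ptcd3 (-0.32) and Chchd1 (-0.23) fell in the second sampling, Dap3 (-0.036) was not called, and Aurkaip1 rose by 0.47, with -0.079 when total counts were the scale. Of 24 assembly factors 16 fell and 2 rose, of 14 translation factors 10 fell and 1 rose, of 17 mitochondrial tRNA synthetases 9 fell and 2 rose (Mars2 at -0.40), and of 16 factors of mitochondrial DNA expression 12 fell and 1 rose. Over the first-sampling days the same lists had 18 falls and 2 rises, 10 and 0, 8 and 0, and 9 and 0. Of all 18192 genes tested 5572 fell and 5721 rose in the second sampling, and the share that fell over the days is given above with the slopes.

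The mRNAs that these ribosomes translate were mostly higher on the TMM scale. Of 13 mitochondrially encoded mRNAs 8 rose and 1 fell in the second sampling (median 0.19), led by mt-Co1 (0.77) and mt-Co2 (0.55), with mt-Nd3 (-0.27) as the fall, and over the first-sampling days 9 rose and 1 fell (median 0.16), led by mt-Nd3 (0.59), mt-Atp6 (0.58) and mt-Atp8 (0.75), with mt-Nd6 (-0.74) as the fall. In the second sampling the direction of this list depends on the scale: with total counts 1 rose and 6 fell, with a median of -0.18. Over the first-sampling days that scale gave 5 rises and 1 fall, with a median of 0.062. With the score in the second sampling 2 rose and 2 fell. mt-rRNA took a median of 6.92% of counts in cohorts 1 to 4, 14.7% in cohort 5 and 15.4% in cohorts 6 to 9, a split by cohort that runs along the first-sampling days.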

How the data were processed

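The authors deposited 1 table per gene with an expected count and a TPM value for each library. Per the submitters' processing notes, reads were processed with DRAGEN on GRCm39. Its version, the annotation release and the strand setting: not given in the sources used here. Of all expected count values 2.86% were not whole, and 0 value columns were left unused.

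Expected counts were rounded. The filter filterByExpr, with the 20 groups as its design, a count minimum of 10 and a total minimum of 15, retained 18192 genes. After TMM scaling the test was edgeR's quasi-likelihood test, two-sided, in edgeR 4.0.16 with limma 3.58.1 and R 4.3.3. P-values were adjusted by Benjamini-Hochberg over all genes tested, at a threshold of 0.05. Each SE was obtained as |log2| over the root of its F. The procedure was first checked on simulated counts. TPM served only to compare levels between genes. Promoter windows came from RefSeq on GRCm38.p6.

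The labels do not say whether same-numbered libraries of a cohort come from 1 mouse. They were taken as independent, which is an assumption. Same-numbered libraries deviated together in 37 of 95 pairs (r over 0.1), which cannot show that they came from different mice. If they came from 1 mouse, the tests between samplings ignored that pairing. P-values measure the spread between these libraries. For day and housing no p-value measures the spread between cohorts. Alternatives were DESeq2 1.42.0, its size factors, total counts without 366 globin, mitochondrial and other abundant RNA genes, no filter, composition covariates, cohort subsets, left-out SPF replicates and, chosen after seeing the data, leaving out 8 far libraries. The members and lists were chosen with earlier results of these data known. Named genes were up to 5 members with the largest change in each direction per comparison, the 3 highest and 3 lowest by TPM, and members of known role.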

Additional observations from a re-analysis of the deposited data

Results flagged for a closer look

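Single libraries stood apart from the other libraries of their group in 29 of 180 checks by Dixon's test, which chance alone would give in about 1 of 20 groups. The checks took related measures over the same groups, and some libraries were flagged more than once. They are not independent, so the 29 cannot be set against that rate. For the geometric mean of the members the library flagged was replicate 7 of cohort 9 on day 44, at 4.56 CPM.

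Mrps21 was high in replicate 4 of cohort 1 on day 2 (17.3 CPM), replicate 2 of cohort 5 on day 16 (19.8 CPM), replicate 6 of cohort 7 on day 23 (25.1 CPM), replicate 7 of cohort 4 on day 40 (63.3 CPM) and replicate 1 of cohort 8 on day 40 (37.4 CPM). Mrpl32 was high in replicate 2 of cohort 5 on day 16 (40.2 CPM), replicate 1 of cohort 8 on day 26 (40.1 CPM), replicate 4 of cohort 1 on day 44 (215 CPM) and replicate 7 of cohort 9 on day 44 (268 CPM). For Mrpl20 the high libraries were replicate 2 of cohort 2 on day 5 (9.95 CPM), replicate 6 of cohort 6 on day 19 (6.81 CPM), replicate 6 of cohort 7 on day 23 (9.66 CPM), replicate 4 of cohort 1 on day 44 (64.2 CPM), replicate 7 of cohort 4 on day 40 (24.3 CPM), replicate 1 of cohort 8 on day 40 (12.9 CPM) and replicate 7 of cohort 9 on day 44 (59.1 CPM). Mrpl57 was high in replicate 10 of cohort 9 on day 30 (7.63 CPM), replicate 4 of cohort 1 on day 44 (40.6 CPM) and replicate 7 of cohort 4 on day 40 (19.2 CPM).

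Mrpl33 was high in replicate 5 of cohort 3 on day 9 (36.9 CPM), replicate 1 of cohort 8 on day 26 (96.3 CPM), replicate 2 of cohort 9 on day 30 (93.7 CPM), replicate 8 of cohort 2 on day 40 (124.4 CPM) and replicate 3 of cohort 5 on day 44 (110.03 CPM). Mrps15 was high in replicate 2 of cohort 2 on day 5 (4.01 CPM), replicate 10 of cohort 6 on day 19 (4.84 CPM) and SPF replicate 3 on day 44 (3.24 CPM), and low in replicate 3 of cohort 3 on day 44 (1.96 CPM). The libraries of Mrpl33 and Mrps15 differ from those of Mrps21, Mrpl32, Mrpl20 and Mrpl57, except for replicate 1 of cohort 8 on day 26 and replicate 2 of cohort 2 on day 5.

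The change in the second over the first sampling differed among the 9 cohorts for 14 of 78 members by edgeR's quasi-likelihood test of the difference. The same test called 6416 of the 18192 genes tested, a larger share than among the members. The adjusted p was 5.71e-07 for Mrpl33, 0.00331 for Mrps6, 0.00861 for Mrps16, 0.00930 for Mrpl9, 0.00964 for Mrpl16, 0.0153 for Mrpl42, 0.0225 for Mrpl3, 0.0241 for Mrpl37, 0.0254 for Mrps26, 0.0296 for Mrpl43, 0.0349 for Mrpl2, 0.0364 for Mrps5, 0.0383 for Mrpl32 and 0.0487 for Mrpl15.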

How the results depend on the processing

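For the 82 values of single genes, 802 were computed under an alternative: 596 (74.3%) kept direction and side of the threshold, 17.3% were no longer past it, 51 (6.36%) changed sign and 16 came past it. Of 96 counts of members called under an alternative, 65 stayed within 1.5 times of the 12 they stand beside and 31 did not. The count changed by over 1.5 times in these settings, and the cause was not tested. The shares of all genes called are not given beside these counts, so they do not set the members apart from other genes. For the slope over first-sampling days (62) it was 28 with globin and mitochondrial rRNA shares as covariates, 14 with the cell type list means, 26 within cohorts 1 to 4, 1 within cohorts 6 to 9 and 40 in libraries of score 0. For the second over the first sampling (63) it was 2 with the list means and 16 within cohorts 6 to 9, and for the difference among cohorts (14) it was 25 with DESeq2 size factors and 44 with total counts. For the score in the second sampling (37) it was 68 with total counts, 23 with the rRNA and globin shares, 0 with the list means, 20 within cohorts 1 to 4 and 0 within cohorts 6 to 9. For the score in the first sampling (2) it was 1 without the filter, 4 with DESeq2, 4 with the shares, 0 with the list means, 0 within cohorts 1 to 4 and 1 without the far libraries. For conventional over SPF mice on day 44 (13) it was 52 with total counts, 8 without the filter, 23 with DESeq2, 0 with the list means, 0 with conventional libraries of score 0 or 0.5 (14 members had an unadjusted p under 0.05 by edgeR), and 5 to 8 without SPF replicates 3, 4 or 5 (9 without replicate 1 or 2). On day 16 (0) DESeq2 gave 1, and for cohort 5 (7) total counts gave 3 and no filter gave 3.

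Named genes changed sign as follows. Over first-sampling days, with the globin and rRNA shares, Mrpl10 was at 0.021, Mrps12 at 0.011, Mrps18a at 0.0021, Mrps18c at -0.16, Mrps36 at -0.10, Dap3 at 0.020 and Aurkaip1 at 0.054. With the list means Mrps15 was at -0.015, Mrps18b at 0.14, Mrps18c at -0.060 and Ptcd3 at 0.036. Within cohorts 6 to 9 Mrpl10 was at 0.033, Mrps12 at 0.0078, Mrps18b at 0.025, Mrps18c at -0.14, Mrps36 at -0.059, Dap3 at 0.092 and Aurkaip1 at 0.18. In libraries of score 0 Mrps18b was at 0.013 and Mrps18c at -0.0033. Mrps18c was further at -0.016 with DESeq2 size factors, -0.096 with total counts, -0.011 with DESeq2, -0.22 within cohorts 1 to 4 and -0.0058 without the far libraries, and Mrps36 at -0.074 with total counts. In the second over the first sampling, total counts gave Mrpl10 -0.35, Mrpl57 -0.14, Mrps18c -0.17, Mrps36 -0.40 and Aurkaip1 -0.079. The list means gave Mrpl10 -0.052, Mrpl20 -0.023, Mrpl32 -0.025, Mrpl57 -0.043, Mrps18a 0.10, Mrps21 -0.058, Mrps36 -0.18 and Chchd1 0.070. Mrpl10 was also at -0.024 with DESeq2 size factors, -0.024 with DESeq2 and -0.028 within cohorts 1 to 4, Mrps18a at 0.12 within cohorts 6 to 9 and Mrps36 at -0.025 without the far libraries. With the score, the list means gave Mrpl20 -0.025, Mrpl32 -0.050, Mrpl53 -0.026, Mrpl57 -0.033, Mrps21 -0.042 and Mrps35 0.020, and on day 44 total counts gave Mrps15 -0.14.

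Replicate numbers were not shown to pair the libraries: same-numbered deviations had r from -0.35 to 0.63 (median 0.048), and 13 of 95 libraries correlated best with their own number. A low r between samplings on different days cannot show that the mice differed. With the replicate number as a block, 62 members were called in the second over the first sampling against 63, 5 against 7 in cohort 5, 0 in SPF mice and 0 for the difference of the changes.

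Low counts limit single members: 11 have a median count under 50 and carry a large counting error in single libraries. SPF mice are 1 cohort with 5 libraries a day, and the score of 4 rests on 1 library.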
